A study of Mus musculus with 6 samples.

Results

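Mpo, Elane, Prtn3 and Ctsg encode myeloperoxidase, neutrophil elastase, proteinase 3 and cathepsin G, the enzymes that fill the primary (azurophil) granules of granulocyte-monocyte progenitors. They were taken as the probe sets annotated to these symbols, which gave 1 probe set for each of the 4 genes among 19938 genes with a symbol. Expression was measured on whole-transcript arrays in leukemia cells of a mouse line that carries MLL-AF10, a fusion of the histone methyltransferase MLL to AF10. All 6 samples were of this line and were grown in medium with WEHI conditioned medium. In 3 samples the cells were given vehicle, and in 3 they were given 0.5 µM of an IKK inhibitor. Which IKK inhibitor was used and for how long is not given in the sources used here, and the labels do not say whether replicates were grown apart. Spread between replicates, on which every p-value rests, may thus be technical. Animal age and strain are likewise not given, and the line stands for a single leukemia model.

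Primary granules are the first granules made in neutrophil development. Their proteins are transcribed in a short window at the progenitor and promyelocyte stages, after which secondary granule genes are switched on. Myeloperoxidase is a heme enzyme that makes hypochlorous acid from hydrogen peroxide and chloride. Elastase, proteinase 3 and cathepsin G are serine proteases of the chymotrypsin fold that are packed as active enzymes after cathepsin C (Ctsc) removes a dipeptide from their amino end. Transcription of these genes is known to depend on PU.1 (Spi1), MYB, RUNX1 with CBF beta (Cbfb), and C/EBP factors, and monocyte differentiation also switches them off.

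The 250 bases before each gene's start are shown so that motifs of these factors can be compared between genes that did not change alike. They come from RefSeq on the build GRCm38.p6, where all 4 genes matched, and are written 5′ to 3′ on each gene's own strand, with GAGGAA, the core of PU.1 sites, in capitals. Mpo lies on the plus strand of chromosome 11 (chr11:87793534-87793783), Elane (chr10:79886062-79886311) and Prtn3 (chr10:79879417-79879666) are neighbours on the plus strand of chromosome 10, and Ctsg lies on the minus strand of chromosome 14 (chr14:56102575-56102824).
Mpo: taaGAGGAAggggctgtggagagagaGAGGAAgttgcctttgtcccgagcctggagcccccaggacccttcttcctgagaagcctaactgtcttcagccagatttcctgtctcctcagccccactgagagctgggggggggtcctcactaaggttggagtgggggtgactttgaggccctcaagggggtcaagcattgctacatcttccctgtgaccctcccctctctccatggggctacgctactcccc
Elane: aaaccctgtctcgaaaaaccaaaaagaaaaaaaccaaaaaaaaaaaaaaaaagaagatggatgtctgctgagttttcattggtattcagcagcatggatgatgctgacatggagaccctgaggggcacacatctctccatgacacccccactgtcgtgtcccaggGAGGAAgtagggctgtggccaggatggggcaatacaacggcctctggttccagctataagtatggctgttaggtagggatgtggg
Prtn3: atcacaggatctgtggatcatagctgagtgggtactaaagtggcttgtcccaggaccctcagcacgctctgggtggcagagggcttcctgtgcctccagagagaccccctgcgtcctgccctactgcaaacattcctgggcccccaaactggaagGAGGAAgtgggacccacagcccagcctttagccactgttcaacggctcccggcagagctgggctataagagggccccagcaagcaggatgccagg
Ctsg: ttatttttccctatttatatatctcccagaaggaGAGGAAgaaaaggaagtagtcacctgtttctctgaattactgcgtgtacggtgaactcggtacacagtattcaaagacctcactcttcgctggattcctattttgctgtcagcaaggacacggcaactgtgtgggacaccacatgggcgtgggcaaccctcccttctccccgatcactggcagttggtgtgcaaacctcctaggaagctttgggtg

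GAGGAA was found in all 4 windows, each time on the gene's own strand. On either strand it was found in 23.3% of 32851 promoter windows of the same length. The Mpo window held 2 copies, both far from the start, at 247 to 242 and 224 to 219 bases before it. In Elane and Prtn3 the single copy lay nearer, at 85 to 80 and at 95 to 90 bases, and in Ctsg it lay at 216 to 211 bases. AACNG, the core bound by MYB, was also in all 4 windows, but 74.2% of promoters held it. TGTGGT, bound by RUNX factors, was found in Ctsg alone of the 4 (14% of promoters). TTGCNNAA, a form of the C/EBP site, was in none of them (9.56%). The NF-kB consensus was likewise in none of the 4 windows and in 7.25% of promoters. Both strands were searched for every motif, and no 2 of these matches overlapped within a window. A looser NF-kB form, GGG and CC with any 5 bases between them, had been searched first and was found in 2 of the 4 windows, those of Mpo and Prtn3, and in 45.8% of promoters. The stricter consensus took its place after that result was seen.

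Mpo, which carries the peroxidase activity of the granule, fell with the inhibitor to 16.2% of its vehicle level. Its intensities on the deposited linear scale were 726, 771 and 788 in the vehicle arrays and 119.5, 137 and 116 in the inhibitor arrays. Every inhibitor array lay far below every vehicle array, and inhibitor array 2 was the highest of its group. The means were 762 ± 32.1 and 124 ± 11.2 (SD, n = 3 each), and limma gave -2.62 ± 0.08 (SE) as the log2 fold change, with a 95% interval of -2.80 to -2.44. This is a 6.16-fold decrease, with an adjusted p of 2.22e-05 by limma over 19847 genes. Mpo was rank 1 of these genes by size of fall. The next were Rtp4 at -1.80, Oasl2 at -1.49, S1pr3 at -1.43 and Snora21 at -1.31.

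Prtn3 and Elane, which lie next to each other, fell by far less. Prtn3 encodes the protease that is the autoantigen of some vasculitides. Its intensities were 3659.6, 3644 and 3733 with vehicle and 3041, 2983 and 3048 with the inhibitor. The groups did not overlap, and the gap between them was several times the spread within either. The means were 3679 ± 47.5 and 3024 ± 35.8 (SD, n = 3 each). On the log2 scale the change was -0.28 ± 0.04 (SE, adjusted p = 0.00936 by limma), which left 82.2% of the vehicle level.

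Elane encodes the elastase whose mutations cause congenital neutropenia in people. Its intensities were 4877, 4779.7 and 5015 with vehicle and 4217, 4136 and 4052 with the inhibitor, again without overlap. The means were 4890.5 ± 118 and 4135 ± 82.7 (SD, n = 3 each). On the log2 scale the change was -0.24 ± 0.05 (SE, adjusted p = 0.0198 by limma), which left 84.6% of the vehicle level. Its size ranged from -0.26 to -0.22 across fits on 5 arrays, but the adjusted p was then 0.0625, 0.0619 and 0.0866 without vehicle arrays 1, 2 and 3, 0.0629 without inhibitor array 1, 0.0382 without inhibitor array 2 and 0.0531 without inhibitor array 3. The call was also lost with each array centred on its median (log2 fold change -0.28, adjusted p = 0.0546). Prtn3 was called in all 6 of these settings, at adjusted p between 0.0223 and 0.0498, and with median centring at 0.0245.

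Ctsg, the protease of the granule with mixed chymotrypsin-like and trypsin-like cleavage, did not pass the test. Its intensities were 4824, 4838 and 5091 with vehicle and 4984, 4692 and 5013 with the inhibitor. The groups overlapped, and the lowest and the highest of the 6 arrays were inhibitor array 2 and vehicle array 3. The means were 4918 ± 150.3 and 4896 ± 178 (SD, n = 3 each), and on the log2 scale the change was -0.0065 ± 0.05 (SE, adjusted p = 0.961 by limma). Its 95% interval was -0.132 to 0.12. The interval of Prtn3 was -0.39 to -0.18 and lay below that of Ctsg. The interval of Elane, -0.36 to -0.128, overlapped that of Ctsg slightly.

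**Figure D1:**
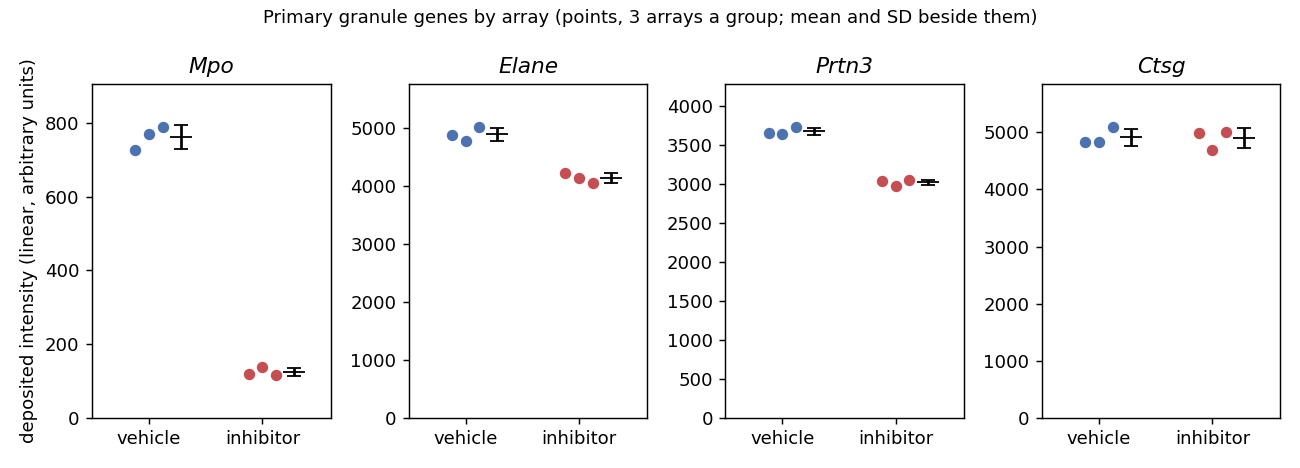
Deposited intensity (linear axis from 0, arbitrary units) of each primary granule gene in the 3 vehicle arrays (blue) and the 3 inhibitor arrays (red), with each group's mean and SD beside the points. The groups are far apart for Mpo (762 and 124), apart by a smaller share of their level for Elane and Prtn3, and overlap for Ctsg (4918 and 4896).

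With 3 of the 4 genes called lower, this share stands beside a background of 6.75% of all genes called lower and 7.10% called higher. Groups that did not overlap were seen in the same 3 genes and in 32.9% of all genes, 17.2% in the lower direction. At least 2-fold falls were called for 0.0353% of all genes, and Mpo alone of the 4 was among them. None of the 24 intensities of these genes was near the floor of 16 that was applied before taking log2, so the floor did not shape these changes. The inhibitor values of Mpo (116 to 137) were, however, close to the array medians of 112 to 124. How much of that signal was background was not tested, so the level that remained and the fold decrease are uncertain.

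The changes of the 4 genes were also set against each other within arrays, as the log2 ratio of 2 genes on the same array. With the inhibitor the ratio of Mpo to Elane shifted by -2.38, that of Mpo to Prtn3 by -2.34 and that of Mpo to Ctsg by -2.62. The SD of these 3 ratios was between 0.04 and 0.18 within groups. The ratio of Elane to Ctsg shifted by -0.24 and that of Prtn3 to Ctsg by -0.28. In each of these 5 pairs the groups did not overlap. The exact permutation test (2-sided) then gave p = 0.1, the smallest that 3 against 3 arrays allow, and 0.12 after Benjamini-Hochberg adjustment over 6 pairs, so that this test cannot bring these differences under 0.05 with 3 arrays a group. The ratio of Elane to Prtn3 differed by 0.04, with SDs of 0.02 and 0.04 and overlapping groups (exact p = 0.3, adjusted 0.3).

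**Figure D2:**
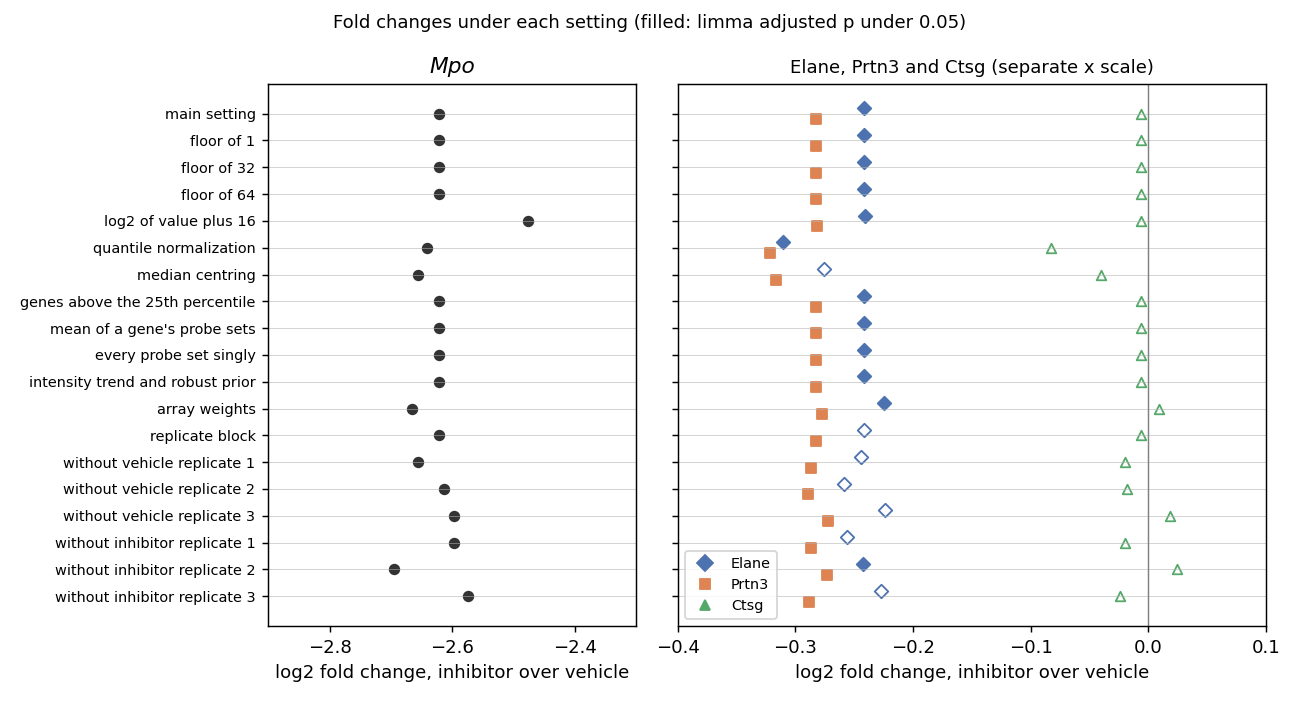
Log2 fold change (inhibitor over vehicle) of Mpo (left) and of Elane, Prtn3 and Ctsg (right, separate scale) in the main setting and 18 alternatives, filled where the limma adjusted p was under 0.05. Mpo stays between -2.69 and -2.48 and Prtn3 is filled throughout, Elane is open in 7 alternatives, and Ctsg is always open and lies on both sides of 0.

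The brightness of the probe sets differed, and the array does not allow the level of one gene to be ranked against another. Mpo lay among 2644 genes with a mean vehicle intensity from 500 to 1000, of which 15.7% were called lower. In that range the largest fall after Mpo was that of S1pr3 (-1.43). The 3 protease genes lay among the 283 genes with a mean vehicle intensity of at least 3000. There, 12 genes (4.24%) were called lower and 29 higher, and log2 fold changes ran from -0.38 to 0.63. Within this bright range the fall of Prtn3 was at rank 5 and that of Elane at rank 8. Whether bright probe sets understate changes was not tested.

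**Figure D3:**
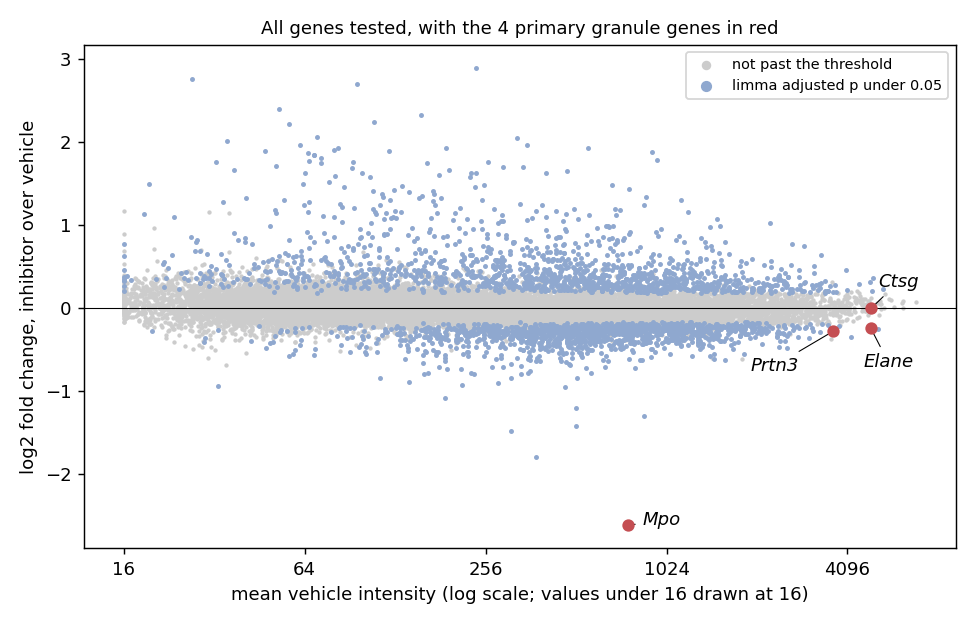
Log2 fold change against mean vehicle intensity (log axis) for 19847 genes, with genes past an adjusted p of 0.05 in blue and the 4 primary granule genes in red. Mpo is the lowest point at -2.62, whereas Elane, Prtn3 and Ctsg lie at the bright end, where genes with a vehicle mean of at least 3000 had changes from -0.38 to 0.63.

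Other contents of the primary granule were more often higher than lower. Of 10 such genes, 5 were higher and 1 was lower, with a median log2 fold change of 0.36 beside 0.0064 for all genes tested. Over all genes 13.9% were called in either direction, and the counts of this and the following lists stand beside that share. The lower one was Prss57, which encodes neutrophil serine protease 4. Its means were 619 ± 4.43 and 423 ± 25.7 (SD, n = 3 each), with a change of -0.55 ± 0.06 on the log2 scale (SE, adjusted p = 0.00195 by limma). The lysozyme genes Lyz1 and Lyz2 rose by 0.79 and 0.45, and because their sequences are similar their values are uncertain. Lyz2 is the lysozyme gene of myeloid cells. Whether the Lyz1 probe set read Lyz2, so that these 2 calls count 1 signal, was not tested. Ctsd, a lysosomal aspartic protease, rose by 0.51, the lysosomal fucosidase gene Fuca1 by 0.49 and the granule membrane protein gene Cd63 by 0.37. The Cd63 call was lost without vehicle arrays 2 and 3 or inhibitor array 1, which left 4 genes higher. Bpi (bactericidal permeability-increasing protein, 0.35), the proteoglycan core gene Srgn, which holds granule proteins together (0.10), and Gusb (beta-glucuronidase, 0.07) did not pass. Other granules and cell states than the primary granule also use the lysosomal enzymes of this list.

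A list of genes for the folding, activation and sorting of these proteins also held genes of inherited neutropenias, and had small changes in both directions. G6pc3 and Hax1 belong to it as neutropenia genes, not for a role in these steps. Of 12 measured, 2 were higher and 2 lower, with a median of 0.05. Ctsc, whose product activates the 3 proteases, rose by 0.25, and Cst7, which encodes the cystatin that inhibits cathepsin C, rose by 0.24. Jagn1 and G6pc3, genes mutated in inherited neutropenias, fell by 0.27 and 0.25. The chaperone genes Calr (-0.06) and Canx (0.06), which bind newly made myeloperoxidase, and Hax1 (-0.16) did not pass. On 5 arrays all 4 calls held without inhibitor array 2, 2 held without inhibitor array 3 and 1 without vehicle array 1, whereas 0 were called by limma without vehicle array 2, vehicle array 3 or inhibitor array 1. With each array centred on its median, 0 were higher and 1 was lower.

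Myeloperoxidase needs heme, and 9 genes of heme synthesis were measured, with 1 higher, 2 lower and a median of -0.04. Cpox (coproporphyrinogen oxidase) fell by 0.49, from 365 ± 3.51 to 260.2 ± 21.4 (SD, n = 3 each), with an adjusted p of 0.00597 by limma. Slc25a38, a mitochondrial glycine carrier, fell by 0.40, and Alas1, the first enzyme of the pathway, rose by 0.20. The Alas1 call was lost whichever array was left out, and that of Slc25a38 without vehicle arrays 1, 2 and 3 or inhibitor array 1. Centring arrays on their medians left 0 of these genes higher and 2 lower. Fech, which inserts the iron, was at -0.0097 on the log2 scale and did not pass, nor did Alad, Uros, Urod or Ppox.

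Among 8 genes for inhibitors of the granule enzymes, 2 were higher and none was lower by limma (2 were lower at an unadjusted p under 0.05), with a median of 0.08. Slpi, the secretory leukocyte peptidase inhibitor that blocks elastase and cathepsin G, rose from 1389 ± 27.8 to 2308 ± 59.5 (SD, n = 3 each), which is 0.73 ± 0.05 (SE) on the log2 scale. Cp, which encodes ceruloplasmin, an inhibitor of myeloperoxidase, rose by 0.85 from a low level of 79.9. Serpinb1a, the main intracellular inhibitor of these proteases, was at -0.21 and did not pass (adjusted p = 0.0715 by limma).

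Of 14 transcription factors known for these promoters, transcripts of 2 were higher and of 1 lower, with a median of 0.01. Thus 3 of 14 passed beside 13.9% of all genes. At an unadjusted p under 0.05 by limma, 6 were higher and 1 lower, beside 2645 higher and 2749 lower of 19847 genes. With median centring 1 was higher and 1 lower. Irf8, which favours monocytes over granulocytes in progenitors, rose by 0.68 from 308 ± 10.9 to 496 ± 24.2 (SD, n = 3 each). Gfi1, a repressor needed for granulocyte formation, fell by 0.34. Cebpd rose by 0.25, but leaving out vehicle array 1 or 3 or inhibitor array 1 or 3 ended that call, and 1 factor was then higher. Spi1 (0.14), Myb (-0.09), Cebpa (-0.10), Cebpe (-0.0057) and Cbfb (-0.07) did not pass. Runx1 had a log2 fold change of 0.21 with an adjusted p of 0.0501 by limma, just above the threshold, and was called in 7 of 12 other settings that keep all arrays. Activity of a factor can change without its transcript, and was not measured.

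Genes that mark granulocyte-monocyte progenitors, 3 of them shared with the lists above, moved both ways. Of 14 measured, 3 were higher and 6 lower, with a median of -0.10. With median centring 0 were higher and 6 lower, so that each call of a higher gene was lost, and with the replicate block 1 was higher and 5 were lower. Nkg7, a granule membrane protein gene, fell by 0.85 from 114 ± 2.61 to 63.0 ± 2.88 (SD, n = 3 each), and Ms4a3, a gene of committed granulocyte-monocyte progenitors, fell by 0.56 from 1475 ± 36.8 to 1001.2 ± 66.3. Kit, a receptor tyrosine kinase gene of stem and progenitor cells, fell by 0.54, Hdc (histidine decarboxylase) by 0.31 and Cd34 by 0.30. The member called higher and not named above was the Fc receptor gene Fcgr3 (0.27). Flt3 (-0.05), Csf3r (0.06), Plac8 (-0.11) and Fcnb (-0.08) did not pass. Without vehicle arrays 1, 2 and 3 and inhibitor array 1, the members called numbered 5, 4, 4 and 4, and each of these was lower. Nkg7, Prss57, Ms4a3 and Hdc were called whichever array was left out.

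Most genes of later granules went the other way from Mpo. Of 13 secondary and tertiary granule genes and oxidase subunits, 11 were higher and none was lower by limma (0 also at an unadjusted p under 0.05), with a median of 0.74. Mmp9 (gelatinase) rose by 1.45, Adam8 by 1.19, the oxidase subunit gene Cybb by 1.02 and Olfm4 by 0.92. The secondary granule gene Ngp rose by 0.74, whereas Ltf, which encodes lactoferrin of the same granules, was at 0.02 and did not pass. Monocytes and macrophages also express some genes of this list, such as Mmp9, Adam8 and Cybb. Which cell state gave the rise was not tested.

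Monocyte and macrophage markers rose in the same arrays in which Mpo fell. Of 20 measured, 12 were higher and none was lower by limma (0 also at an unadjusted p under 0.05), with a median of 0.62, and their summed intensity was 7827 to 8150.4 in the vehicle arrays and 15789 to 17253 in the inhibitor arrays. Among those called were the receptor genes Csf1r (1.23) and Adgre1 (1.43), while the macrophage markers Cd163 (0.12), Timd4 (0.04) and C1qa (0.07) and the monocyte receptor gene Ccr2 (-0.05) did not pass. The part of this shift in the changes of the granule genes was not tested, and in bulk RNA fewer cells of a type and less RNA per cell cannot be told apart. None of 7 mast cell and basophil, 6 eosinophil, 5 T cell, 4 B cell, 3 erythroid or 6 stromal and endothelial markers passed by limma. At an unadjusted p under 0.05 there were 2 among them, the B cell marker Cd79a (-0.33) and the endothelial marker Pecam1 (-0.18).

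**Figure D4:**
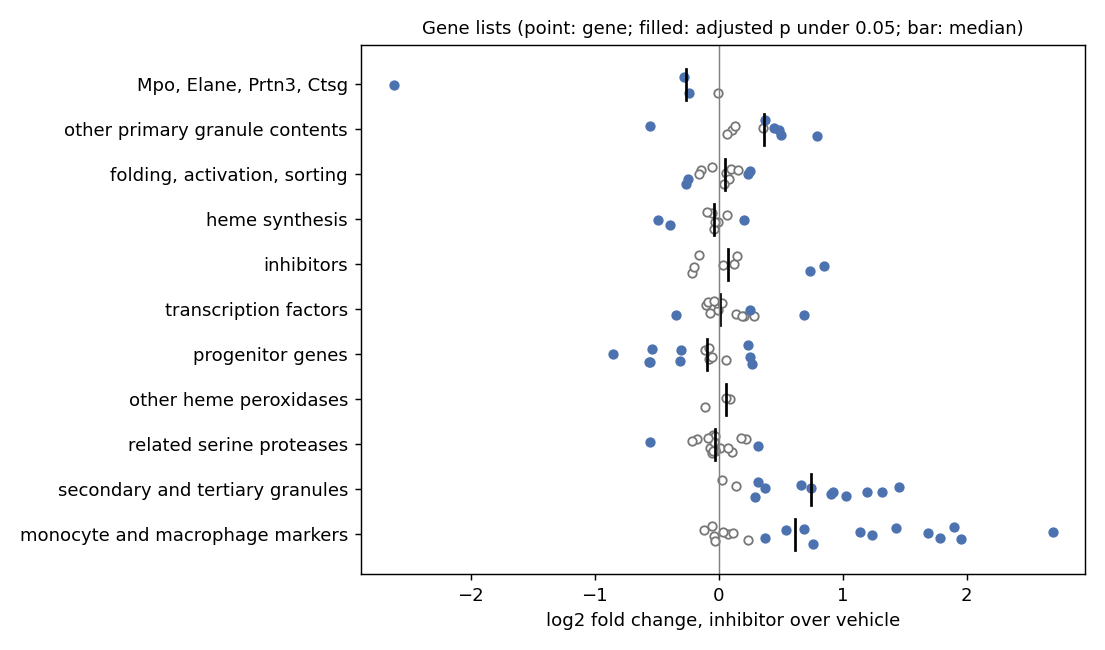
Log2 fold change of every measured gene of each list (points, filled where the limma adjusted p was under 0.05), with the list median as a bar. Mpo is the lowest point at -2.62, other primary granule contents lie mostly above 0, and the later granule and monocyte lists have medians of 0.74 and 0.62.

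Genes for proteins related in structure to the 4 enzymes were mostly dim. Of the heme peroxidase genes Epx (eosinophil peroxidase, 54.7 with vehicle), Lpo (lactoperoxidase, 81.8) and Pxdn (peroxidasin, 65.2), none passed by limma (0 at an unadjusted p under 0.05), with log2 fold changes between -0.11 and 0.09 and dim signals on all arrays. Of 19 related serine protease genes measured, mostly granzymes and mast cell proteases, Prss57 was lower and Gzma higher (0.32, from a dim 45.6), which is 2 of 19 beside 13.9% of all genes. Many of these genes are similar to each other in sequence, and their dim signals are uncertain.

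The genes next to each member on its chromosome were also measured, as the 5 nearest protein-coding genes on each side. Of 27 neighbours measured, 1 was higher and 4 were lower, which is 5 of 27 beside 13.9% of all genes. With median centring 0 were higher and 3 lower. Beside Mpo, the neighbour Tspoap1 fell by 0.58 from 360.5 ± 31.6 to 240.5 ± 17.0 (SD, n = 3 each, adjusted p = 0.00653 by limma). On the other side of Mpo, the peroxidase gene Lpo and, past Mks1 (-0.21), Epx did not pass. At the Prtn3 and Elane locus, the adjacent Plppr3 fell by 0.43 from 851 ± 35.7 to 630.5 ± 13.3, and Prss57, at the 5th place on that side, is the granule protease described above. Between them Ptbp1, a splicing regulator with mean intensities of 2839.6 and 2837.8, was at -0.00081 on the log2 scale. Palm (-0.25) was called lower and Arid3a (0.25) higher, but on 5 arrays Palm was called only without inhibitor array 2, and Arid3a in no case. Around Ctsg lie granzyme and mast cell protease genes, and of 9 measured none passed by limma (0 at an unadjusted p under 0.05). Cfd, Supt4a and Mcpt9 are not analysed here. Without vehicle arrays 1, 2 or 3 or inhibitor array 1 or 3, the same 3 genes were called, Tspoap1, Plppr3 and Prss57.

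**Figure D5:**
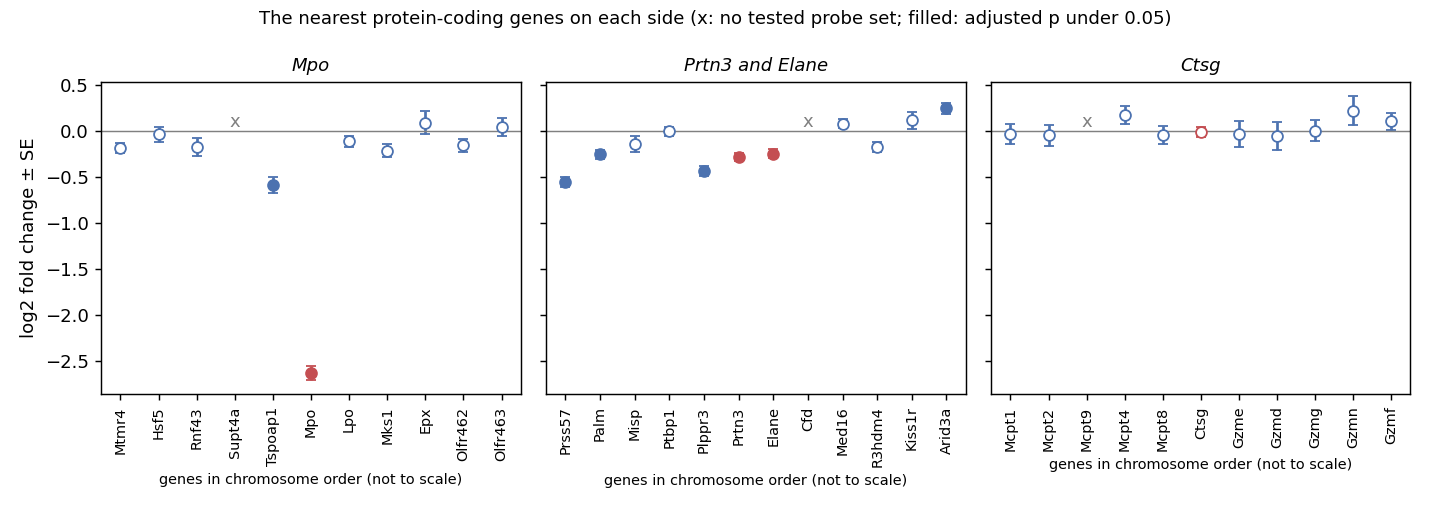
Log2 fold change ± SE of the 5 nearest protein-coding genes on each side of Mpo, of Prtn3 and Elane, and of Ctsg, in chromosome order and not to scale (filled: limma adjusted p under 0.05). Mpo at -2.62 lies far below its neighbours, of which Tspoap1 alone is filled, Prtn3 and Elane lie between -0.55 for Prss57 and 0.25 for Arid3a, and the Ctsg locus has no filled point.

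Genes with a pattern like that of each member were found from the root mean square difference between 2 genes over the 6 arrays, on log2 values centred on the vehicle mean. The genes nearest to Mpo were Rtp4, at a distance of 0.59, Oasl2 (0.81), S1pr3 (0.85), Snora21 (0.93) and Cmpk2 (0.998), so that no gene came close to its size of fall. By Pearson correlation over the 6 arrays, which ignores size and rests mainly on the 2 groups, Snora21 (r = 0.999), Igll1 (0.998) and Orc2 (0.998) were most like Mpo, and 117 genes had r over 0.99. Snora21 fell from 860.2 to 348, and both measures placed it among the 5 genes most like Mpo. Patterns like those of the proteases were common. Within a distance of 0.1 lay 2365 genes for Elane, with Pif1, Nudt22 and Cmtr2 the nearest, 1738 for Prtn3, with Crnde, C1qbp and Prmt3 the nearest, and 6253 for Ctsg, with Hydin, Eif5a and Api5 the nearest.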

How the data were processed

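Total RNA of 6 samples was read on Affymetrix whole-transcript arrays, 1 array a sample, per the labels' protocols. The authors deposited 1 table of intensity values, and the submitters' processing notes name Affymetrix Expression Console as the tool. Not given in the sources used here are its version, summarization, background correction and scaling. The values ran from 0.71 to 8186, with array medians of 112 to 124, and were read as linear. The table has no detection calls, and the number of arrays limits the precision.

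Values under 16 (5.94% of all) were set to 16 and log2 was taken. The platform annotation gave 1 symbol for 21789 of 35512 probe sets, and 21698 of these were updated through Entrez numbers. The brightest probe set stood for a gene, and 91 genes with no value above the floor were left out. The groups were fitted by limma 3.58.1 under R 4.3.3 (no covariates, 2-sided, Benjamini-Hochberg over 19847 genes, threshold 0.05). SE and intervals are those of the fit, and means and SD are of deposited values. In simulated data drawn from the means and spread of the 19847 genes, the fit found 59 of 100 true log2 changes of size 0.5. It found 94 of 100 of size 1, and the run, which held both sizes, gave 5 false calls. Only genes given these sizes were changed there, far fewer than the 2749 called in the real data. The rates may thus not hold for the real data. Smaller changes, such as those of Elane and Prtn3, were not simulated.

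The members, gene lists, promoter motifs, brightness ranges and alternatives were chosen with earlier results of these data known. Genes named were the members, up to 4 genes with the smallest p of each list and up to 4 others by role, the genes most like each member, the largest falls and called neighbours. Others (the rest of the genes with values above) were named after their values were seen. Deviations from the group means correlated at r = 0.24, 0.13 and -0.09 between samples with the same replicate number. Between samples with different numbers r ran from -0.29 to 0.18. These values do not settle whether samples were paired, and numbers were not taken as pairs in the main fit.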

Additional observations from a re-analysis of the deposited data

How the results depend on the processing

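The fall of Mpo kept its direction and its call in every alternative run, at log2 fold changes no lower than -2.69 and no higher than -2.48, the latter with the value plus 16 in place of the floor, and between -2.69 and -2.57 with an array left out. Prtn3 was lower in every alternative run and called in all but the requirement of a 1.5-fold change (value -0.28), and lay between -0.29 and -0.27 with an array left out. Elane was lower in every alternative but not called with median centring (-0.28) or a replicate block (-0.24, adjusted p = 0.0633), at an adjusted p under 0.01 (-0.24) or with a 1.5-fold minimum (-0.24), and lay between -0.26 and -0.22 with an array left out. The value for Ctsg was -0.083 with quantile normalization (adjusted p = 0.29 by limma) and -0.040 with median centring. It was 0.0088 with array weights and between -0.024 and 0.024 with an array left out, on either side of 0. The replicate block used the replicate numbers, and whether these pair the samples is not given.

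Genes called numbered 2749 in the main setting, 4199 with an intensity trend and robust prior, 4334 with array weights, 1679 with the replicate block, 984 at an adjusted p under 0.01, 396 with a 1.5-fold minimum, and 1186 to 2845 with an array left out. By list, the counts that moved by over 1.5 times were as follows. Of the transcription factors 5 were called with a floor of 64, 5 with the value plus 16, 6 above the 25th percentile of intensity, 8 with the trend, 6 with array weights and 1 with the 1.5-fold minimum. Of the related serine proteases 1 was called with a floor of 64, 1 above the 25th percentile, 1 at 0.01 and 0 with the 1.5-fold minimum. Of the folding, activation, sorting and neutropenia genes 1 was called with median centring, 8 with the trend and 1 with the block. Of the same genes 0 were called at 0.01, 0 with the 1.5-fold minimum and 0 to 4 with an array left out. Of the heme synthesis genes 1 was called with the block, 1 at 0.01, 0 with the minimum and 1 to 2 with an array left out. With array weights 4 inhibitor genes were called. Of the neighbours 3 were called with median centring, 3 with the block, 3 at 0.01, 0 with the minimum and 3 to 5 with an array left out. Of the progenitor genes 4 were called at 0.01, 1 with the minimum and 4 to 9 with an array left out, and of the other primary granule contents 1 with the minimum. Counts of the later granule and monocyte lists stayed within 1.5 times of their main values. The table holds no detection calls, so dim genes such as Epx were not judged present or absent.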
